A study of Rattus norvegicus with 6 samples.

Results

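RNA of the suppressor of cytokine signalling (SOCS) family was followed in rat primary beta cells that received a control siRNA or an siRNA against the splicing factor Nova1. The family was taken as every transcript that the deposited assembly names Socs1 to Socs7 or Cish: 24 transcripts of 8 genes, out of 60887 transcripts at 24579 gene models. It drew attention because the transcript shares of Socs7 differed between control and knockdown, so the Socs7 values in that contrast are a description with no test, while the other 7 genes were taken by name. All 8 genes passed the filter on low reads. Beta cells were purified by fluorescence-activated sorting from rat pancreas and prepared in 3 batches. In each batch 1 culture received a negative control siRNA (Allstars, called siCTL in the labels) and 1 received the Nova1 siRNA, both at 30 nM with Lipofectamine RNAiMAX for 16 h, followed by 48 h of recovery, so every library comes from transfected cells. The labels name no strain, age or number of animals for a batch. Every p-value below rests on the spread over the 3 batches, and part of that spread may be technical. limma moderates the spread of each gene with that of all genes tested.

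SOCS proteins hold an SH2 domain, which binds phosphorylated tyrosines, and a C-terminal SOCS box, which recruits elongins B and C and a Cullin 5 ubiquitin ligase to the bound protein. Cish, Socs1, Socs2 and Socs3 are known as feedback inhibitors, transcribed in response to activated STAT factors and acting on the cytokine receptors and JAK kinases upstream of them. Socs4 and Socs5 have long N-terminal regions and have been linked to epidermal growth factor receptor signalling, and Socs6 and Socs7 to insulin signalling. In beta cells the family is known for dampening prolactin, growth hormone, interferon and interleukin signals.

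Between 95394043 and 292432076 reads were assigned to transcripts per library, with each read pair counting as 2 reads. Nova1 stood at 20.6, 21.5 and 17.4 CPM (reads of a gene scaled to a common library size) in the controls of batches 1 to 3 and at 7.76, 10.2 and 9.43 in the knockdowns, a log2 difference of -1.12 (SE 0.11, adjusted p = 0.038, limma). In summed RPKM, which also depends on the split between its transcripts, it stood at 5.06, 2.83 and 2.03 against 1.38, 2.38 and 1.81, which overlap. Over all genes, 274 of 15983 passed an adjusted p of 0.05, 82 higher and 192 lower in the knockdown, and with library totals alone as the scale the split was 47 higher and 44 lower. No beta cell marker passed the test among 9 tested (median -0.05), and the most abundant were Ins1, Ins2 and Iapp. Genes listed as markers of other cells were present in both groups, and which cells expressed them was not tested. Summed over each list, RPKM (the deposited level per length of transcript and per library depth) was 231 to 628 in control and 170 to 474 in knockdown for acinar markers, led by Ctrb1, Prss1 and Amy2a3. Immune markers (C1qa, Lyz2, Cd74) summed to 15.1 to 18.3 and 14.7 to 28.0, and stellate cell markers (Vim, Col1a1, Col1a2) to 13.7 to 31.7 and 29.4 to 37.9. Endothelial markers (Plvap, Esam, Eng) summed to 3.29 to 4.09 and 3.11 to 4.76, and duct markers (Krt7, Epcam, Krt19) to 249 to 292 and 263 to 339. Within the duct list, Krt7 averaged 141 RPKM over all libraries, Epcam 130 and Krt19 11.5, so the sum rests mainly on Krt7 and Epcam. The hormones of other islet cells, led by Gcg, Ppy and Sst, summed with their list to 5601 to 14580 and 7451 to 15854. Of 14 models of acinar markers Ctrb1 fell, by 0.40 on the log2 scale (adjusted p = 0.046, limma), and the median was -0.39. None of the 7 other endocrine, 7 endothelial or 6 duct markers tested passed, with medians of 0.07, 0.01 and 0.23.

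All 8 family genes were detected in every library, and their levels spanned a wide range. On the per-length RPKM scale, averaged over the 6 libraries, Socs7 came first at 22.2 and Socs5 second at 18.1, followed by Socs6 at 8.61, Socs2 at 6.62, Cish at 3.89, Socs4 at 3.54, Socs3 at 0.443 and Socs1 at 0.325. The order is therefore not resolved between Socs7 and Socs5, between Socs6 and Socs2, between Cish and Socs4, or between Socs3 and Socs1, whose ranges over the 6 libraries overlapped. The ranges of Socs5 (17.0 to 20.1) and Socs6 (6.89 to 10.1) did not overlap, nor did those of Socs2 (4.95 to 8.14) and Cish (3.29 to 4.31), or of Socs4 (3.12 to 4.10) and Socs3 (0.292 to 0.588). Among the mean RPKM of all genes tested, Socs7 lay at percentile 81.9, Socs5 at 78.4, Cish at 45.0 and Socs1 at 14.5. The STAT-induced inhibitors Socs1 and Socs3 were thus the rarest members, and their gene models are single exons of 639 and 678 nt, multiples of 3 that hold the coding length and no untranslated part.

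**Figure D1:**
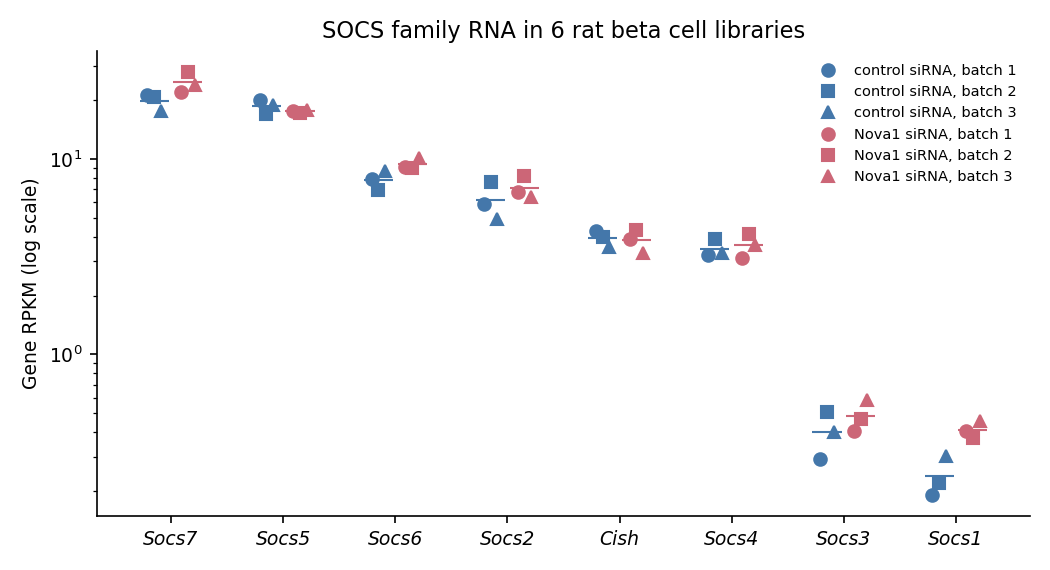
Summed RPKM of each SOCS family gene (log axis) in the 3 control (blue) and 3 Nova1 siRNA (red) libraries, with batches as marker shapes and group means as lines. Socs7 and Socs5 lie near 22.2 and 18.1, and Socs3 and Socs1 lie below 0.588 in every library.

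Socs7, an adaptor-like member that binds insulin receptor substrates and Nck, was assembled as 5 transcripts on the plus strand of chromosome 10 (Rnor_5.0, 85087026 to 85126536). A transcript from the first of 2 internal starts was the main form in control cells, and one from the second was the main form in knockdown cells. The first internal form (TCONS_00011176) begins 17243 nt into the gene model and has 7 exons and 6018 nt. The second (TCONS_00011177) begins 18625 nt into it and has 5 exons and 5599 nt. Their starts are 1382 nt apart and they share 5552 nt, 92.3% of the first and 99.2% of the second, including the 5136-nt last exon at 85121401 to 85126536. Only 466 nt belong to the first and not the second, and 47 nt to the second and not the first, so the deposited estimates can tell the pair apart only through those stretches and the junctions beside them. The remaining 3 forms begin at the upstream start: TCONS_00011173 with 9 exons, TCONS_00011174 with 10, and TCONS_00011175, which matches the known gene model, has 1737 nt and lacks the long last exon. The letters of these exons are not printed because no genome of this build was used here.

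**Figure D2:**
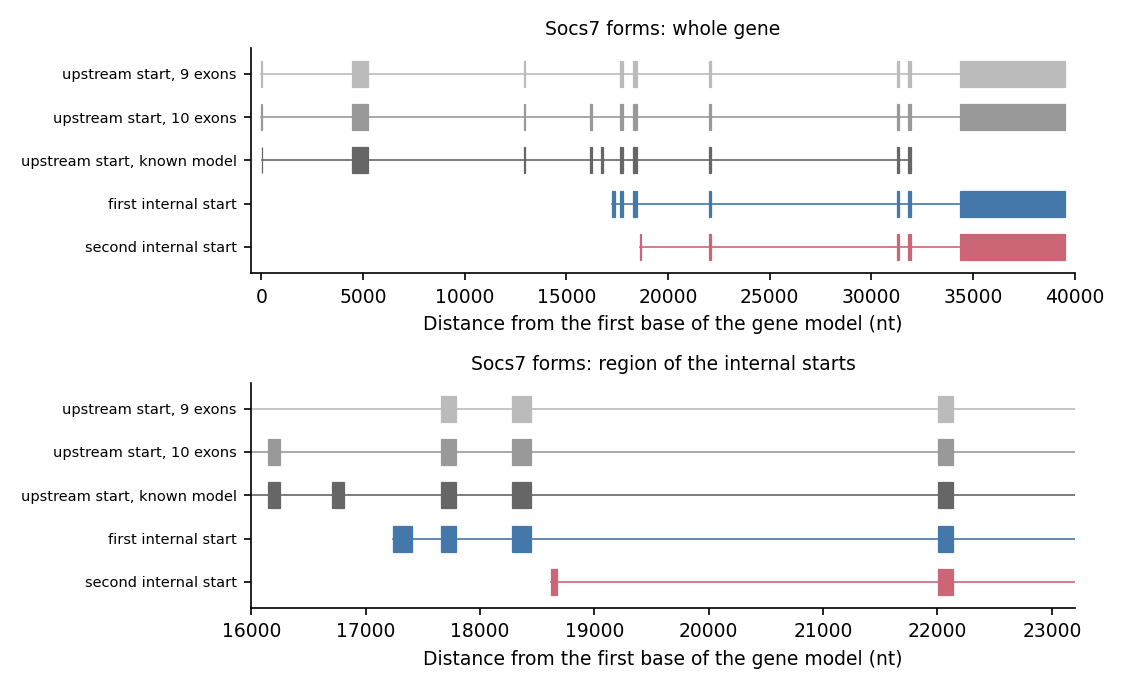
Exons (boxes) and introns (lines) of the 5 Socs7 forms by distance in nt from the first base of the gene model, for the whole gene and for the region of the internal starts. The internal forms begin at 17243 and 18625 nt, and the second lacks the exons upstream of its own 47-nt first exon.

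The first internal form had 13.5, 16.4 and 12.5 RPKM in the controls of batches 1 to 3 and 4.06, 3.70 and 0.678 in the knockdowns. The second was listed at 0, 0.591 and 0 in the controls and had 9.33, 15.5 and 13.7 in the knockdowns. Every control was above every knockdown for the first form and below every knockdown for the second. The pair together had 13.5, 17.0 and 12.5 RPKM in control and 13.4, 19.2 and 14.4 in knockdown, which overlap: 14.3 ± 2.36 against 15.7 ± 3.11 (SD, n = 3). Of the pair, the first form made up 100, 96.5 and 100% in control and 30.3, 19.3 and 4.71% in knockdown. As shares of the whole gene, the first form averaged 71.2% ± 8.01 in control and 11.5% ± 7.95 in knockdown (SD, n = 3), and the second 0.956% ± 1.66 and 51.8% ± 8.20. A transcript lost at least 50 points of share while another gained as much in 0.502% of the 8570 genes with several transcripts and a mean of 1 RPKM. Socs7 was selected for this difference, so nothing is read from that background.

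The upstream forms of Socs7 summed to 7.78, 3.64 and 5.15 RPKM in control and 8.65, 8.65 and 9.55 in knockdown, so every knockdown lay above every control. How often forms of other genes are separated this way was not counted. Socs7 was selected on its transcript shares, so nothing is read from this separation. The known model was the largest of the 3, at 6.13, 1.54 and 3.85 RPKM in control and 5.44, 5.03 and 6.93 in knockdown, though in control batch 2 the other 2 together exceeded it. Its share of the gene was 19.4% ± 10.9 in control and 23.9% ± 5.49 in knockdown (SD, n = 3). The other upstream forms averaged between 4.21 and 6.60% each in either group. A 105-nt exon at 85103174 to 85103278, present in some upstream forms and skipped in TCONS_00011173, was included in 88.8, 73.4 and 86.9% of upstream RPKM in control and 80.4, 80.5 and 87.5% in knockdown, which overlap. A 131-nt exon at 85104684 to 85104814 belongs to every form but the second internal one. The forms that hold it made up 100, 97.1 and 100% of gene RPKM in the controls and 57.7, 44.4 and 42.7% in the knockdowns. The long last exon was part of 80.6% ± 10.9 of gene RPKM in control and 76.1% ± 5.49 in knockdown. The internal forms, whose shares differed between the groups, differ at their 5′ ends, upstream of a shared 3′ end, as far as the assembly draws them. The known model lacks that 3′ end.

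**Figure D3:**
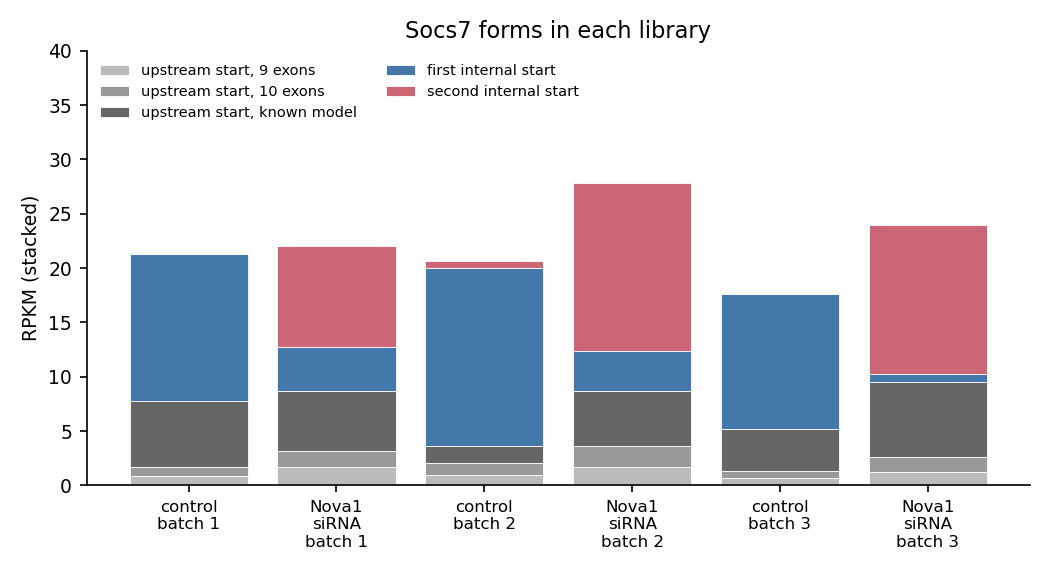
Stacked RPKM of the 5 Socs7 forms in each library, controls and knockdowns side by side by batch. The first internal form (blue, 12.5 to 16.4 RPKM in control) is largest in every control, and the second (red, 9.33 to 15.5 in knockdown) in every knockdown.

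The gene total of Socs7 was 21.3, 20.6 and 17.6 RPKM in control and 22.0, 27.8 and 24.0 in knockdown, without overlap on this scale. How many of all genes are separated in RPKM was not counted. In CPM, which ignores form length, it was 109.6, 116.4 and 99.7 against 113.7, 131.9 and 116.9, which overlap. The fitted log2 difference was 0.15, with 0.05, 0.18 and 0.23 in batches 1 to 3.

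Cish binds activated cytokine receptors and was the best expressed of the classical feedback members after Socs2. It lies on the plus strand of chromosome 8 (Rnor_5.0, 115410737 to 115416048). The 250 bases before its RefSeq start (build GRCr8, plus strand, chr8:116850719-116850968) are shown because they hold several copies of the letters TTCNNNGAA, the core of the element that STAT dimers bind. The same stretch of Socs1 (GRCr8, plus strand, chr10:5389324-5389573) is shown for comparison. Capitals mark each match.
Cish promoter: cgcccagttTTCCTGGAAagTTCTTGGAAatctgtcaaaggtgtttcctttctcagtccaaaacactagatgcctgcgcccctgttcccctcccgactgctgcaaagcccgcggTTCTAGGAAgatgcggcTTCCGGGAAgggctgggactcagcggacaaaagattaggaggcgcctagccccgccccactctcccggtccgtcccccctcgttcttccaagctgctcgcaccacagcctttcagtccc
Socs1 promoter: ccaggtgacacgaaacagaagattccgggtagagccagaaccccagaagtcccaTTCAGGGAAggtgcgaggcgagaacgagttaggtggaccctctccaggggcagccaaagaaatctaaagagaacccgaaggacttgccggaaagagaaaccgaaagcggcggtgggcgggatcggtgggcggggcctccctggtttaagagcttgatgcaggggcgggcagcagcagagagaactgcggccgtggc
The Cish window holds 4 matches, TTCCTGGAA, TTCTTGGAA, TTCTAGGAA and TTCCGGGAA, whose first bases lie 241, 230, 136 and 119 bases before the start. Socs1 has 1, TTCAGGGAA, at 196 bases before it. The motif reads the same on both strands. Of 33469 RefSeq windows of 300 bases (250 before to 50 after a start), 8.87% hold at least 1 match, 0.547% hold at least 2, and only 2 windows hold 4 or more. RefSeq windows matched 5 of the 8 members, and those of Socs3, Socs4 and Socs6 have no match to these letters. Bases outside these windows were not searched, so a gene without a match here may hold the element elsewhere.

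None of the 7 members other than Socs7 passed an adjusted p of 0.05 between knockdown and control (limma voom with batch as a block), beside 1.71% of all genes in either direction, 0.513% higher and 1.2% lower. At an unadjusted p under 0.05 there were 3 of the 7 (Socs1 and Socs6 higher, Socs5 lower), beside 23.9% of all genes. The median log2 difference of the 7 was 0.16, and that of all genes was 0.0035.

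Among the feedback members, Socs1, which inhibits JAK kinases directly, was the only one of the 8 with every knockdown above every control in CPM, beside 3.96% of all genes. Its levels were 0.130, 0.138 and 0.213 CPM in the controls of batches 1 to 3 and 0.273, 0.221 and 0.309 in the knockdowns. The log2 difference was 0.75 (SE 0.29, 95% interval unadjusted for the number of genes 0.03 to 1.48), with 1.07, 0.67 and 0.54 in the 3 batches and an adjusted p of 0.20 by limma. These values rest on few molecules: 18, 9 and 20 read pairs in control and 17, 12 and 22 in knockdown. Exact 95% Poisson intervals of the pairs, not scaled for depth and covering counting error only, were 10.7 to 28.4, 4.12 to 17.1 and 12.2 to 30.9 in control and 9.90 to 27.2, 6.20 to 21.0 and 13.8 to 33.3 in knockdown. Some markers of other cells passed an adjusted p of 0.05 (limma): 2 of 13 immune and 3 of 11 stellate markers, beside 1.71% of all genes. Of 13 immune markers 11 had a positive log2 difference, beside 50.8% of all genes, with a median of 0.96. Lyz2 was higher at 1.43 (adjusted p = 0.042, limma) and C1qa lower at -0.47 (adjusted p = 0.046, limma). Of 11 stellate markers, Col3a1, Col5a1 and Col5a2 rose, and the list's median was 0.56. Their part in the Socs1 values was not tested. In bulk RNA a change in the number of cells of a type and a change in RNA per cell cannot be told apart.

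Socs3, the inhibitor that binds gp130 and other receptors, had 0.210, 0.338 and 0.298 CPM in control and 0.289, 0.295 and 0.421 in knockdown, with the groups overlapping. Its log2 difference was 0.29 (SE 0.27, 95% interval -0.39 to 0.97, adjusted p = 0.54, limma), positive in 2 of 3 batches, from 16 to 30 read pairs per library. Cish had 8.51, 7.40 and 7.30 CPM in control and 7.78, 7.61 and 6.58 in knockdown, a log2 difference of -0.09 (SE 0.07, 95% interval -0.28 to 0.10, adjusted p = 0.51, limma). Socs2, known as a brake on growth hormone signalling, had 10.6, 12.7 and 9.08 CPM in control and 11.3, 13.4 and 11.3 in knockdown. The Socs2 difference of 0.16 (SE 0.08, 95% interval -0.03 to 0.35, adjusted p = 0.27, limma) was positive in each batch, at 0.09, 0.08 and 0.31, while the groups overlapped.

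Socs5, linked to interleukin 4 and epidermal growth factor receptors, had 91.9, 71.5 and 89.1 CPM in control and 80.1, 68.8 and 80.4 in knockdown. It was lower in the knockdown of each batch, by 0.20, 0.05 and 0.15 on the log2 scale (fitted -0.14, SE 0.05, adjusted p = 0.19, limma), while the groups overlapped. Socs6, which binds the insulin receptor and its substrates, had 15.1, 12.3 and 17.5 CPM in control and 17.5, 15.1 and 19.3 in knockdown. It was higher in each knockdown by 0.21, 0.30 and 0.14 (fitted 0.21, SE 0.06, 95% interval 0.06 to 0.36, adjusted p = 0.13, limma). In RPKM every Socs6 knockdown (8.98 to 10.1) was above every control (6.89 to 8.70), and in CPM the groups overlapped. The share of all genes separated in RPKM was not counted. The median log2 difference of all genes was 0.042 on log2(RPKM + 0.1), against 0.0035 in the fit reported here. Socs4, the closest relative of Socs5, had 23.4, 26.1 and 25.0 CPM in control and 22.6, 26.1 and 26.0 in knockdown. Its difference was 0.0021 (SE 0.054, 95% interval -0.13 to 0.14, adjusted p = 0.99, limma), with differences of both signs among the batches.

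**Figure D4:**
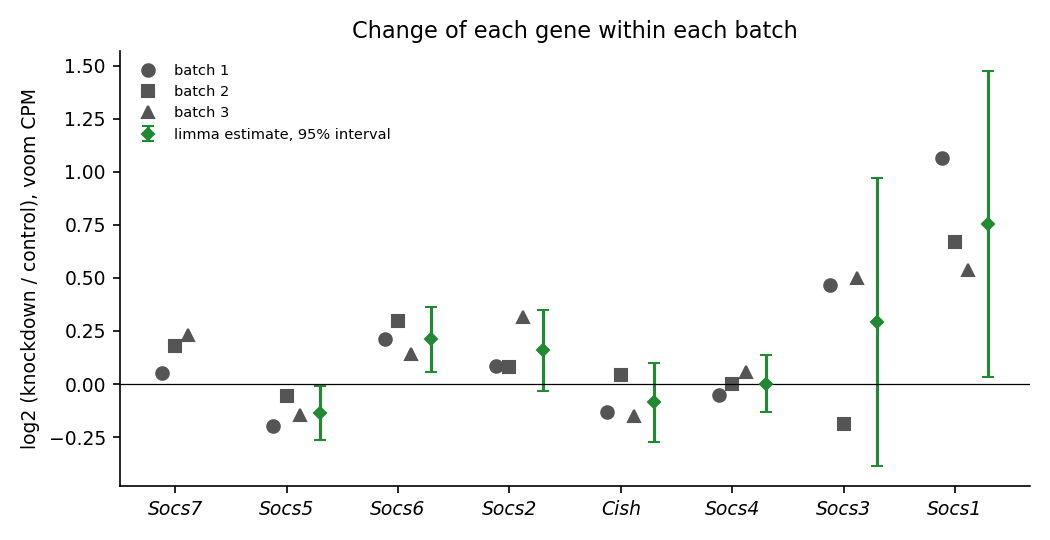
The log2 ratio of knockdown to control for each family gene in batches 1, 2 and 3 (grey) and the limma estimate with its 95% interval (green), which Socs7 lacks because it was selected in this contrast. Socs1 is highest, at 0.54 to 1.07 in the batches, and its interval is wide, from 0.03 to 1.48.

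Differences between the 3 batches were tested in the same fit, on a measure the choice of the family did not use. Batch passed an adjusted p of 0.05 for Socs6 (0.013), Socs5 (0.019) and Socs2 (0.041) by limma's moderated F-test, that is 3 of 8 members beside 56.1% of all genes. Socs2 was highest in batch 2 in both groups, and Socs5 and Socs6 were lowest there in both. Socs7 (adjusted p = 0.094), Socs4 (0.11), Cish (0.14), Socs3 (0.36) and Socs1 (0.37) did not pass.

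Besides Socs7, 4 members had at least 2 transcripts that could be tested for a difference in shares, and none of the 4 passed, beside 0.702% of 9538 genes (limma diffSplice with Simes adjustment per gene). Cish came nearest, with an adjusted p of 0.20. Its known 3-exon form (TCONS_00066685) held 86.6, 77.6 and 83.6% of gene RPKM in control and 77.6, 65.8 and 74.4% in knockdown. The 2-exon form (TCONS_00066684) starts 290 nt further upstream and skips the 221-nt second exon, at 115414030 to 115414250 on chromosome 8. It held 13.4, 22.4 and 16.4% in control and 22.4, 34.2 and 25.6% in knockdown, higher in the knockdown of every batch, with means of 17.4% ± 4.57 and 27.4% ± 6.12 (SD, n = 3). The exons of Cish share 0 of 2222 nt with those assembled for Mapkapk3.

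Socs2 had 5 forms (adjusted p = 0.88). Its 2-exon TCONS_00063313 held 47.6% of gene RPKM in control and 42.3% in knockdown, the known model TCONS_00063317 held 29.3 and 32.2%, and TCONS_00063316 held 13.6 and 13.9%. TCONS_00063315 held 4.63 and 7.54%, with 11.7% in the knockdown of batch 2. Socs5 had 4 (adjusted p = 0.87), of which the known model TCONS_00057430 held 59.3% ± 0.555 in control and 56.7% ± 1.53 in knockdown. TCONS_00057429 held 26.1% ± 9.30 and 34.7% ± 5.61. TCONS_00057431 and TCONS_00057432 share 4382 nt and differ by 44 and 23 nt, so few bases tell them apart. The first was listed at 0 in the knockdown of batch 3 alone, and the second in 3 libraries. Without batch 3 the adjusted p of Socs5 was 0.022 (limma diffSplice), in a fit where 323 of 9679 genes passed. With all batches 67 of 9538 passed. Socs6 had 2 forms tested (adjusted p = 0.88), with TCONS_00032762 at 68.9, 55.1 and 58.6% in control and 66.3, 46.5 and 68.2% in knockdown, and TCONS_00032763 at means of 39.1 and 37.5%. Socs4 was given wholly to TCONS_00024370 except in the knockdown of batch 3, where TCONS_00024372, listed at 0 elsewhere, held 18.0%. Socs1 and Socs3 have 1 transcript each.

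**Figure D5:**
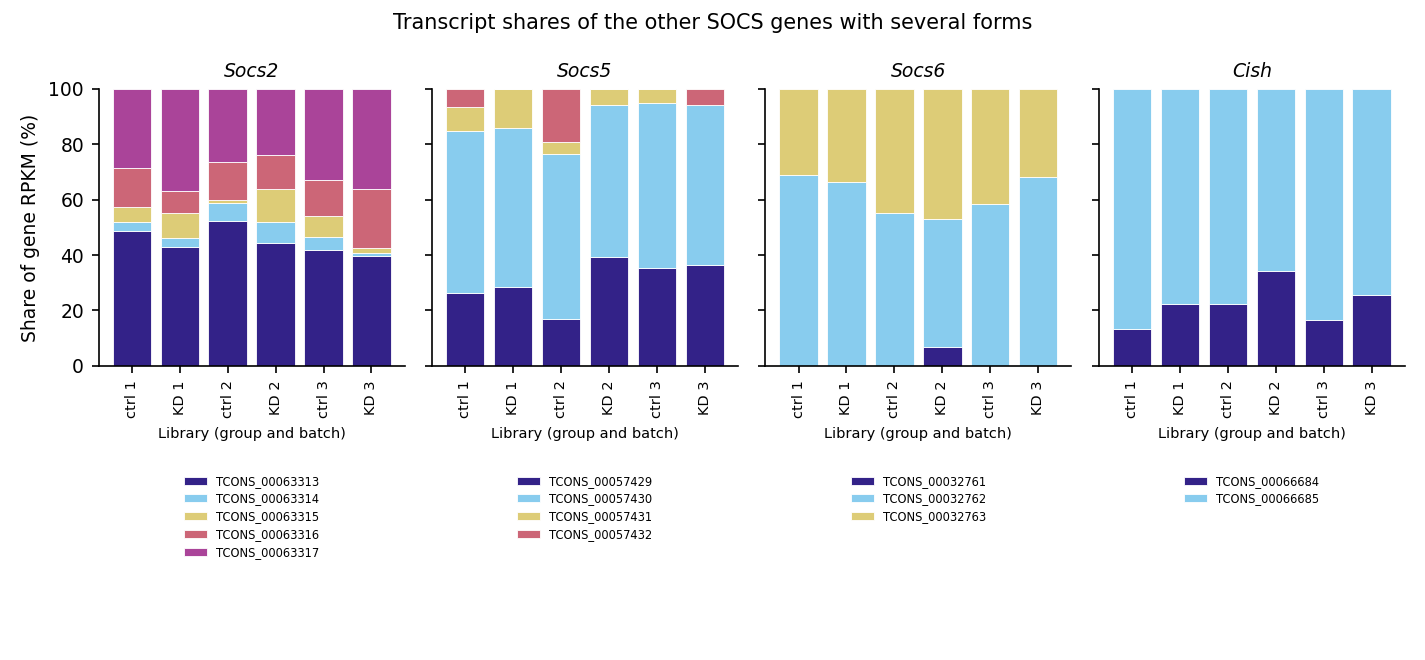
Share of gene RPKM (%) of each transcript of Socs2, Socs5, Socs6 and Cish in every library, ordered by batch with control (ctrl) and Nova1 siRNA (KD) side by side. The Cish 2-exon form TCONS_00066684 is larger in the knockdown of each batch, from 13.4 to 22.4% in batch 1.

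The surrounding pathway was covered by 105 tested gene models in 7 lists, in which Spsb2 and Bcl2l1 each stand for 2 models. Of these 1 passed the adjusted threshold, beside 1.71% of all genes: the cyclin D3 gene Ccnd3, a STAT target, which was lower at -0.37 (adjusted p = 0.046, limma). It had 55.2, 46.8 and 60.0 CPM in control and 45.0, 35.3 and 45.1 in knockdown, and it did not pass when any batch was left out. At an unadjusted p under 0.05, 19 pathway models were higher and 12 lower, that is 31 of 105 beside 23.9% of all genes, and the median log2 difference was 0.03.

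Over all genes 50.8% had a positive log2 difference, the background for the counts of positive genes in each list. Of 17 receptors that signal through JAK kinases none passed, and 12 had a positive difference (median 0.04). The most abundant were the growth hormone receptor Ghr (mean 98.7 RPKM, -0.31, adjusted p = 0.079), the gp130 gene Il6st (45.9, -0.18, 0.16) and the prolactin receptor Prlr (33.0, -0.29, 0.098), all limma log2 differences that did not pass. Of 10 JAK and STAT genes none passed and 9 were positive (median 0.10), with Stat3 (44.4 RPKM) at 0.02 and Stat5b (14.7) at 0.35. At an unadjusted p under 0.05 (limma) there were 1 of these 10 and 8 of the 17 receptors, beside 23.9% of all genes. In the lists that follow there were 3 of 9 ligase components, 5 of 20 SOCS box models and 4 of 12 negative regulators. STAT targets had 5 of 19 and insulin and IGF partners 5 of 18. Of 9 components of elongin-based ligases (the elongins, Cul5, Cul2 and their partners) none passed and 3 were positive, with a median of -0.15. Elongin B, listed as Tceb2 (88.8 RPKM), was at -0.28, the RING protein Rbx1, a partner of Cul2 (59.7), at -0.09 and the cullin modifier Nedd8 (57.1) at -0.21.

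Of 20 other gene models encoding SOCS box proteins none passed and 10 were positive (median -0.0047), led in level by Wsb2 (54.2 RPKM, -0.08), Rab40b (23.0, 0.03) and Tulp4 (20.3, 0.11). Of 12 other negative regulators of the pathway none passed and 8 were positive (median 0.06), with the phosphatases Ptpn6 (22.4 RPKM) at 0.04, Ptpn11 (17.5) at 0.08 and Ptpn2 (11.1) at -0.26. Of 19 models of STAT targets 8 were positive (median -0.0017), Ccnd3 alone passed, and the most abundant were Ccnd2 (190 RPKM, 0.01), Ccnd1 (51.4, -0.0008) and the interferon-induced chemokine Cxcl10 (26.5, -0.33, adjusted p = 0.053, limma). Of 18 insulin and IGF signalling partners none passed and 12 were positive (median 0.07), led in level by Grb2 (74.3 RPKM, -0.04), Irs2 (37.2, -0.15) and Nck1 (24.0, 0.05).

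The pathway genes whose log2 CPM followed each member most closely over the 6 libraries were picked from these 105 candidates, and with so few libraries that share batches the correlations are a description only. For Socs1 they were the interleukin 4 receptor gene Il4r, which the assembly names Il4ra (Pearson r = 0.993) and Pias2 (0.947), and for Socs2 Jak1 (0.988) and Asb13 (0.978). Socs3 had no close match, with Irf1 at 0.761 and Asb5 at 0.755, and neither did Cish, with Rab40c at 0.619 and Cxcl10 at 0.602. Socs4 was nearest to Stat3 (0.970) and Asb5 (0.950), and Socs5 to Pias3 (0.946) and Il6r (0.928). Socs6 was nearest to Asb8 (0.967) and Myc (0.955), and Socs7 to Cul5 (0.937) and the insulin receptor gene Insr (0.930). Of all pairs within the family, the highest correlation was that of Socs2 with Socs7 (0.940) and the lowest that of Socs3 with Cish (-0.964). Socs3 rests on few read pairs per library.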

How the data were processed

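Poly(A) RNA libraries (paired ends, about 200 bp products) were sequenced on an Illumina HiSeq system. The submitters' processing notes name TopHat and the build Rnor_5.0. The authors deposited, for each library, estimated reads and RPKM per transcript of one assembly, per the file headers and values. The program that estimated them and its use of strand were not given in the sources used here. At loci with 1 transcript every whole-valued read number (tolerance 1e-06) was even, so a pair counts as 2 reads.

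Reads were summed per gene model (locus and gene name). Genes with at least 10 reads, scaled to the median library, in 3 libraries and 15 in all were tested with limma 3.58.1 voom (R 4.3.3), trimmed mean of M values scaling and batch as a block, leaving 2 residual degrees of freedom per gene. P-values were adjusted by Benjamini-Hochberg over 15983 genes. limma diffSplice tested transcript shares. The labels number the batch, which pairs the libraries. Deviations from the group means correlated within batches 1 to 3 at 0.38, 0.72 and 0.55. Scripts were tested on simulated data.

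Members and gene lists were chosen with earlier results of these data known. Named genes are all members, Nova1, called pathway genes, the 3 most abundant genes of each list and the 2 pathway genes most correlated with each member; one gene that the rule names is not reported here. The called stellate cell markers were named after their values were seen. Transcripts with at least 10% of a gene in a library are named. Protein identity and searches for Nova motifs were not done.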

Additional observations from a re-analysis of the deposited data

How the results depend on the processing

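None of the 7 members other than Socs7 passed under any of the 10 alternatives run, although the stricter filter tested only 6 of the 8 members, without Socs1 and Socs3. Without the replicate block, 0 genes of the whole table (274 with the block) and 0 pathway genes (1 with it) passed, with 521 genes at an unadjusted p under 0.05. limma-trend on log2(RPKM + 0.1) and on log2(RPKM + 1) also gave 0 of all genes, with 3111 and 3193 unadjusted, and 0 pathway genes. Library totals alone gave 91 genes, no filter 171 and a filter 5 times stricter 119, each with 0 pathway genes. Leaving out each batch gave 0 to 75 genes and 0 to 0 pathway genes. Ccnd3 passed only in the fit as reported and with median-of-ratios scaling. The Socs4 log2 difference changed sign without a filter (-0.00021) and ranged from -0.029 to 0.029 as each batch was left out. Socs7 moved from 0.15 to 0.31 and 0.30 with limma-trend on RPKM. Adjusted p for batch moved across 0.05 with library totals alone for Socs4 (0.015), Socs5 (0.58), Socs6 (0.098) and Socs7 (0.013), without a filter for Socs2 (0.078), and with limma-trend on log2(RPKM + 0.1) for Socs5 (0.34) and Socs6 (0.13). The adjusted p of the Socs5 share test (limma diffSplice) ranged from 0.022 to 0.99 as each batch was left out. In those fits 280 to 323 genes passed, against 67 with all batches. The second internal Socs7 form gained 50.8 points of share by RPKM and 58.7 by reads. For these the cause was not tested. Few read pairs limit Socs1 and Socs3.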
